A study of Mus musculus with 3 samples.

Results

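The POU homeodomain genes of neurons were examined in 3 sorted mouse cell populations. The set held 9 genes, *Pou2f1*, *Pou2f2*, *Pou3f1*, *Pou3f2*, *Pou3f3*, *Pou3f4*, *Pou4f1*, *Pou4f2* and *Pou6f1*, and its members were all array probes whose accession is a RefSeq transcript of one of these genes. This gave 11 probes out of 26583 that could be named and out of 55681 mouse probes in all, and 9 of 20146 named genes. The set was assembled because *Pou6f1* is among the genes with the highest ratio of MGE cells to ES-derived GFP+ cells, so the values of that contrast are given as a description and nothing is drawn from the place of *Pou6f1* in it.

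The study asked how closely Lhx6-GFP+ neurons made from embryonic stem (ES) cells resemble those of the medial ganglionic eminence (MGE), the ventral telencephalic zone that gives rise to many cortical interneurons. MGE-Lhx6-GFP+ cells (MGE cells hereafter) were sorted from the dissected MGE of E12.5 embryos of a transgenic line that carries an Lhx6-GFP BAC on the CD1 background and is labelled female. ES-Lhx6-GFP+ cells (ES GFP+ hereafter) and ES-Lhx6-GFP- cells (ES GFP- hereafter) were the GFP positive and GFP negative fractions of embryoid body aggregates of J14 cells, a single male ES line of strain 129S4/SvJae that carries an Lhx6-GFP BAC and, in both fractions, a viral 692-mCherry enhancer reporter. The aggregates had been given 100 ng/ml Dkk-1, an inhibitor of Wnt signaling, from the start, and 6 nM of SAG, a hedgehog pathway agonist, from day 3, were moved to dishes on day 6, and were dissociated on day 12 with Rock inhibitor Y-27632 in all solutions. GFP was driven by the *Lhx6* BAC, so the fractions differ in reporter activity and the negative fraction is a mixture of other cells. MGE and ES cells differed at once in tissue of origin, strain, sex and culture, whose parts cannot be told apart.

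POU proteins are transcription factors that bind DNA through a bipartite domain, a POU-specific part and a POU homeodomain joined by a linker, and many of them recognize the octamer or A/T-rich variants of it. Class II members, OCT1 (*Pou2f1*) and OCT2 (*Pou2f2*), were first described as octamer factors of housekeeping and immunoglobulin genes. The class III members OCT6 (*Pou3f1*), BRN2 (*Pou3f2*), BRN1 (*Pou3f3*) and BRN4 (*Pou3f4*) act in neural progenitors and young neurons, and often bind next to SOX proteins. BRN3A (*Pou4f1*) and BRN3B (*Pou4f2*) of class IV are known from sensory neurons and retinal ganglion cells, and BRN5 (*Pou6f1*) of class VI is found in differentiated neurons.

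RefSeq promoters, from 250 bases before to 50 bases after a transcript start on GRCm38.p6, could be matched to 8 of the 9 genes with 10 promoters. The gene without a promoter was *Pou3f1*. Of the 10 promoters, 4 are shown because they belong to *Pou6f1*, the gene with the widest range over the arrays, and to the other class III genes, which took different directions in MGE cells. All are given 5′ to 3′ on the strand of the gene, with the searched motifs in capitals. The motifs were chosen after the promoters had been read, and were looked for on both strands.

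In *Pou6f1*, at chr15:100599935-100600234 on the minus strand, capitals mark an A/T-rich site of the kind POU proteins can bind, ATAANTTAT, whose letters read the same on both strands and which begins 133 bases before the start. It does not overlap a match of the other motifs.
Pou6f1: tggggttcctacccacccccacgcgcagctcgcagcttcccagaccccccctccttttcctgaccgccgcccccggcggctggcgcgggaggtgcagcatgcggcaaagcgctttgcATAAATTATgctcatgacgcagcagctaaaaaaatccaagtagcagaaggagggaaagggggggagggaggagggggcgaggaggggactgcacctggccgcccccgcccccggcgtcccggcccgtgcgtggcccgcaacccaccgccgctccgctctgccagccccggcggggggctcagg

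In the class III genes, *Pou3f2* at chr4:22488317-22488616 on the minus strand, *Pou3f3* at chr1:42695518-42695817 on the plus strand and *Pou3f4* at chrX:110814129-110814428 on the plus strand, capitals mark CCAAT boxes, CCAAT or its reverse complement ATTGG.
Pou3f2: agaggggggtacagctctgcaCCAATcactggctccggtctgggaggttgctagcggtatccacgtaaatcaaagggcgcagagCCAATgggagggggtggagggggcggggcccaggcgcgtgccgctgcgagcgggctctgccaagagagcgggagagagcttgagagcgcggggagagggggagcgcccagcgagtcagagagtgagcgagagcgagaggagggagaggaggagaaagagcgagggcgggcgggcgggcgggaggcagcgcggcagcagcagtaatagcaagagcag
Pou3f3: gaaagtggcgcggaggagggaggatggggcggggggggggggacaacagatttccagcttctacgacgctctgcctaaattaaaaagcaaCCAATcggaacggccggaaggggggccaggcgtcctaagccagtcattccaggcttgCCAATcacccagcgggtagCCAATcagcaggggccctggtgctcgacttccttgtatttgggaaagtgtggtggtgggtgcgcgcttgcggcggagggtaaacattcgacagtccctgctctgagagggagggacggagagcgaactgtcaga
Pou3f4: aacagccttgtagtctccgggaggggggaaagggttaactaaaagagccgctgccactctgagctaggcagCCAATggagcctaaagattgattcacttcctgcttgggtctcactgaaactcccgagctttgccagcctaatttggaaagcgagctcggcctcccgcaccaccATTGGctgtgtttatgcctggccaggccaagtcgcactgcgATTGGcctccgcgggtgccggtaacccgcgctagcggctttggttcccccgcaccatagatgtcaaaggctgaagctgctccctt

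The octamer ATGCAAAT was found in 570 of 32851 RefSeq promoters of this length (1.74%) and in 0 of the 10 member promoters. The A/T-rich site was found in 162 promoters (0.493%) and, among the members, in *Pou6f1* alone. CCAAT boxes were found in 37.4% of all promoters. There were 2 in *Pou3f2*, 3 in *Pou3f3* and 3 in *Pou3f4*, counts reached by 11.7% of promoters for 2 or more and 3.37% for 3 or more, and the other member promoters had 0. CCAAT boxes were thus held both by class III genes that were higher in MGE cells, *Pou3f3* and *Pou3f4*, and by *Pou3f2*, which was lower there. For *Pou3f1*, also higher there, no promoter could be searched. GC content was 70.3% in the *Pou6f1*, 67.7% in the *Pou3f2*, 60.3% in the *Pou3f3* and 57.7% in the *Pou3f4* window, against a median of 52.7% for all promoters.

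Expression was read from 1 array per population, so no test, p-value or spread between cultures or embryos exists, and precision is limited by having 3 arrays. Each difference is log2 intensity relative to the array's 75th percentile and is set against 2 SDs of a difference between repeat spots of the same probe, log2 0.397 to 0.403 or 1.32-fold, which covers technical error of the spots only. In bulk samples, fewer cells that express a gene and less RNA per cell cannot be told apart. Well above background were 90.6% of probes on the ES GFP+ array, 80.3% on the ES GFP- array and 77.1% on the MGE array, and the median over all genes was log2 0.27 for ES GFP+ over ES GFP- cells, -0.36 for MGE over ES GFP+ cells and -0.06 for MGE over ES GFP- cells. All 14 markers of MGE-derived neurons, *Lhx6* and *Dlx2* among them, exceeded, on all 3 arrays, the 95th percentile of 106 control probes, which target E1A of adenovirus and the ERCC spike-ins, and all 14 were higher in ES GFP+ than in ES GFP- cells by more than the repeat-spot limit, with *Lhx6* 6.19-fold higher as a mean over 3 probes (log2 2.63, and from 0.05 to 2.65 under 10 other processings). Of all genes 43.9% were higher and 18.3% lower by that limit between these fractions, and of 10 pan-neuronal genes 5 were higher and 2 lower, shares near those over all genes. Among 6 endothelial and 6 microglial markers, 2 and 1 exceeded that percentile on the ES GFP+ array, 1 and 1 on the ES GFP- array and 1 and 2 on the MGE array. The percentile itself lay at intensities of 377, 208 and 152. Below, a gene that did not exceed that percentile is described as within the control range of that array. Because the percentile differs between arrays, a like level can lie within the range on 1 array and above it on another.

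The differences are plotted for each gene and comparison. In MGE over ES GFP+ cells, 3 of the 8 POU genes with a value were at least 2-fold higher (*Pou3f1*, *Pou3f4* and *Pou6f1*), and 5.49% of all 18581 genes were. With the deposited log2 values, and with median signals quantile normalized without background subtraction, *Pou3f4* fell out and 2 were. In the same comparison 2 were at least 2-fold lower (*Pou3f2* and *Pou4f1*), and 32.2% of all genes were. In MGE over ES GFP- cells, which has the MGE array in common with the first, 2 of 8 were at least 2-fold higher (*Pou3f1* and *Pou6f1*), against 9.91% of 17026 genes, and 1 was at least 2-fold lower (*Pou4f1*), against 17.2%. In ES GFP+ over ES GFP- cells only *Pou3f1* passed 2-fold, upwards, where 24.0% of 18656 genes did, and 0 of 8 were 2-fold lower, where 6.4% of genes were. The median of the 8 POU genes was log2 0.60, 0.37 and 0.01 in these comparisons. Measured from the median of all genes, 4 POU genes were at least 2-fold higher in MGE than in ES GFP+ cells, with *Pou3f3* added, where 12.7% of genes were, and *Pou4f1* alone was lower, where 24.2% were.

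Read against the repeat-spot limit in place of 2-fold, 5 of 8 POU genes were higher in MGE than in ES GFP+ cells (*Pou2f1*, *Pou3f1*, *Pou3f3*, *Pou3f4* and *Pou6f1*), where 20.3% of all genes were, and 2 were lower (*Pou3f2* and *Pou4f1*), where 48.7% were. In MGE over ES GFP- cells 4 were higher (*Pou3f1*, *Pou3f3*, *Pou3f4* and *Pou6f1*), against 28.3% of genes, and 3 were lower (*Pou2f2*, *Pou3f2* and *Pou4f1*), against 34.5%. Between the ES fractions 1 was higher (*Pou3f1*), against 43.9% of genes, and 2 were lower (*Pou2f1* and *Pou3f4*), against 18.3%. Nothing is read from these shares for MGE over ES GFP+ cells, the contrast behind the choice of *Pou6f1*.

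**Figure D1:**
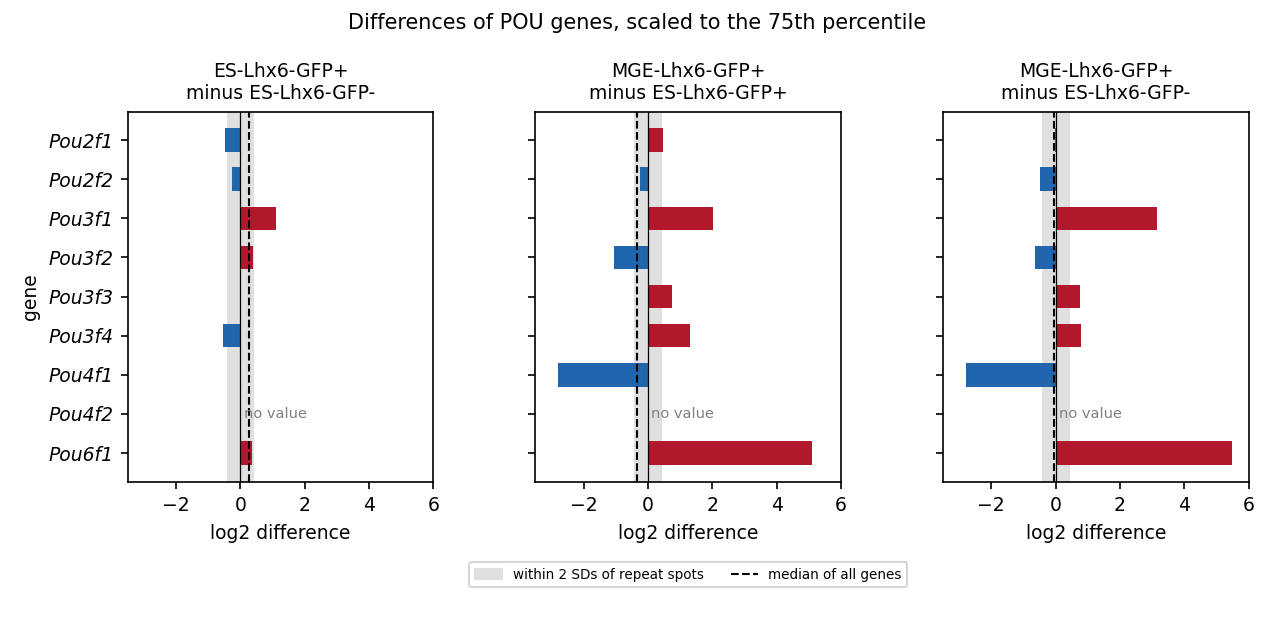
Log2 difference of each POU gene (rows) in the 3 comparisons (panels), scaled to the 75th percentile of each array, from 1 array per population. The grey band is 2 SDs of a difference between repeat spots and the dashed line the median of all genes. *Pou6f1* reaches 5.10 and 5.48 in the comparisons with MGE cells and lies inside the band between the ES fractions, at 0.37.

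*Pou6f1*, the only class VI member of the set, encodes BRN5. Its 1 probe (NM_010127) had an intensity of 152 on the ES GFP+ array, 132 on the ES GFP- array and 4030 on the MGE array. The ES values lay within the control range, although the software called them well above background, and the MGE value was far above it. On the scale relative to the 75th percentile the levels were log2 -2.30, -2.67 and 2.81.

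*Pou6f1* was 34.4-fold higher in MGE than in ES GFP+ cells (log2 5.10) and 44.5-fold higher than in ES GFP- cells (log2 5.48). It ranked 4 from the highest of 18581 genes in the first comparison, the one it was chosen on, and 6 of 17026 in the second, which uses the same MGE array. The ES fractions differed by 1.30-fold (log2 0.37), less than the limit of repeat spots, and the sign of that difference changed with the processing. Since the ES levels were within the control range, a floor at the control percentile gives only that *Pou6f1* was at least 13.9-fold higher in MGE than in ES GFP+ cells. Over all processings tried the difference from ES GFP+ cells lay between log2 3.79 and 5.85 and that from ES GFP- cells between 4.71 and 5.78.

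The genes next to *Pou6f1* on chromosome 15 did not share its size of difference between MGE and ES GFP+ cells. On one side *Tfcp2*, *Csrnp2* and *Letmd1* differed by log2 0.05, 0.56 and 0.49, and on the other *Dazap2* differed by 1.04 and *Smagp* by -1.14.

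The 5 genes with the pattern most like that of *Pou6f1* were *Hba-a2* (distance 0.32), *1700048O20Rik* (0.60), *Hba-a1* (0.70), *Sh3rf3* (0.81) and *Lima1* (0.92). Distance is the root mean square difference of log2 levels centred over the 3 arrays. The search covered 14660 genes with every probe well above background on all 3 arrays. Except for *Hba-a1*, the mean levels of these genes lay within the control range on both ES arrays. *Hba-a1* and *Hba-a2* encode alpha globin of red blood cells and differ little in sequence, so their probes may share signal. Among 6 fixed erythroid markers, 2 exceeded the control range on the MGE array, the embryonic globins *Hbb-y* and *Hba-x*, and 0 on either ES array. The summed intensity of these 6 was 431.9, 269.9 and 11630 on the ES GFP+, ES GFP- and MGE arrays. Of the other markers *Hbb-bh1*, an embryonic globin, was within the control range on all 3 arrays and not well above background on the ES GFP+ array, and *Alas2* and *Slc4a1*, an enzyme of heme synthesis and an anion exchanger of the red cell membrane, stayed within the control range on all 3. The part of blood RNA in the *Pou6f1* result was not tested.

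**Figure D2:**
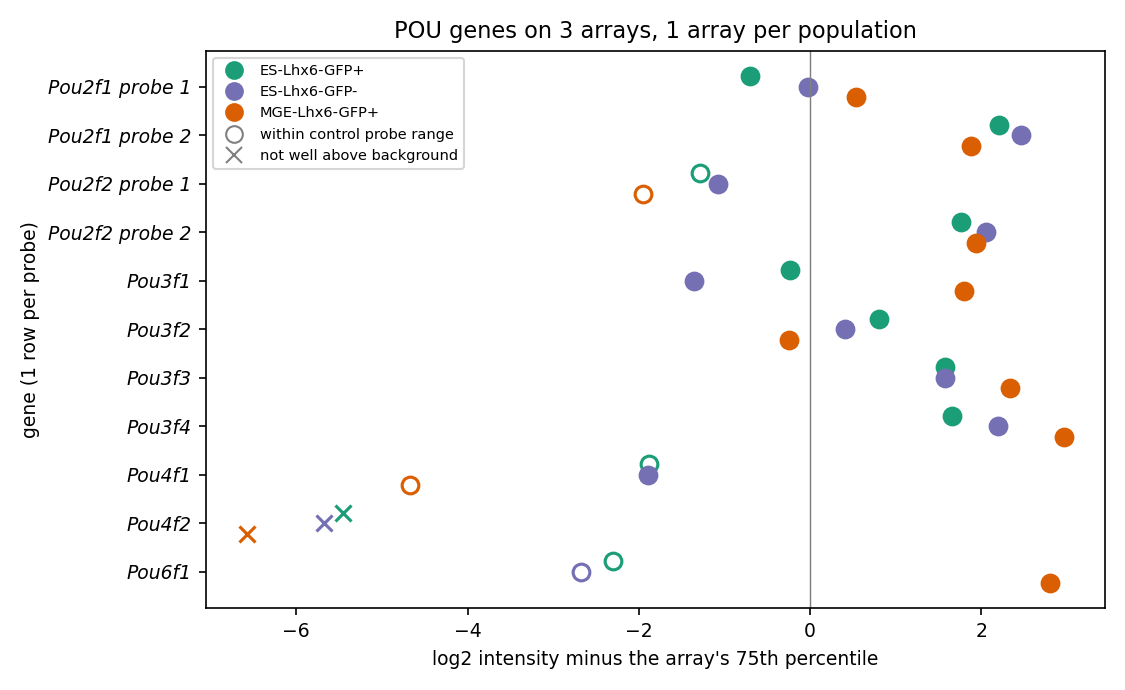
Log2 intensity of each POU probe relative to the 75th percentile of its array (horizontal axis), 1 row per probe and 1 point per array, with small vertical offsets so that points do not hide each other. Open circles are levels within the range of the control probes and crosses are levels not well above background. The MGE point of *Pou6f1* lies at 2.81 against -2.30 and -2.67, and the MGE point of *Pou4f1* lies at -4.68. Levels of different probes are not comparable.

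*Pou3f1*, the class III gene that encodes OCT6, a factor of early neural tissue and of myelinating Schwann cells, had the next widest range, log2 3.15. Its intensity (NM_011141) was 635 on the ES GFP+ array, 331 on the ES GFP- array and 2000 on the MGE array, all above the control range. It was lowest in GFP negative cells, intermediate in ES-derived GFP+ cells and highest in MGE cells, and each step was larger than the repeat-spot limit.

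*Pou3f1* was 2.17-fold higher in ES GFP+ than in ES GFP- cells (log2 1.12) and 4.09-fold higher in MGE than in ES GFP+ cells (log2 2.03). From GFP negative to MGE cells it was 8.87-fold higher (log2 3.15). It was the only POU gene that passed the repeat-spot limit upwards between the ES fractions. The first of these differences fell below 2-fold under 5 of the 10 other processings, where it lay as low as log2 0.67, and the deposited log2 values gave 0.86, 1.87 and 2.73 for the 3 steps. The genes with the most similar pattern were *G530011O06Rik* (distance 0.06), *Prim2* (0.08), *Cep112* (0.09), *Sema3c* (0.09) and *Lingo2* (0.09). Unlike *Pou3f1*, these genes had mean levels within the control range on both ES arrays. Their difference between the ES fractions changed sign under some other processings for *G530011O06Rik* (to log2 -0.28) and *Prim2* (to -0.17). It kept its sign for the other genes.

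The other class III genes are related to *Pou3f1* and to each other, and took different directions. *Pou3f4*, an X-linked gene whose product BRN4 is known from the striatum, hypothalamus and inner ear, had intensities of 2360, 3850 and 4490 on the ES GFP+, ES GFP- and MGE arrays. Relative to the 75th percentile these were log2 1.66, 2.19 and 2.96, so that ES-derived GFP+ cells were the lowest. *Pou3f4* was 2.47-fold higher in MGE than in ES GFP+ cells (log2 1.30), 1.71-fold higher than in ES GFP- cells (log2 0.77), and 1.44-fold lower in ES GFP+ than in ES GFP- cells (log2 -0.53). The first difference was 1.8-fold, log2 0.85, with the deposited log2 values and with the unsubtracted median signals, and so below 2-fold. The difference between the ES fractions kept its sign in all 10 other processings but lay inside the repeat-spot limit under 3 of them, at log2 -0.25 with the deposited values, -0.25 with the unsubtracted median signals and -0.32 with normexp background correction. The labels of sex differ between MGE and ES cells for this X-linked gene.

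*Pou3f3*, which encodes BRN1 of cortical and hippocampal precursors, had intensities of 2230, 2500 and 2900. The ES fractions had nearly the same level, log2 1.58 and 1.57, and the MGE level was 2.33. *Pou3f3* was 1.69-fold higher in MGE than in ES GFP+ cells and 1.7-fold higher than in ES GFP- cells (log2 0.76 in both), above the repeat-spot limit and below 2-fold. Against ES GFP+ cells neither side of this held under every processing. The difference was log2 0.40 with the deposited log2 values and 0.39 with the unsubtracted median signals, inside the limit of 0.401, and 1.51 when scaled to the 50th percentile, above 2-fold. Against ES GFP- cells it lay between log2 0.51 and 1.07.

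*Pou3f2*, which encodes BRN2, a factor used to convert fibroblasts into neurons, was the one class III gene that was lower in MGE than in ES cells. Its intensities were 1310, 1120 and 486, or log2 0.81, 0.41 and -0.25 relative to the 75th percentile. *Pou3f2* was 2.07-fold lower in MGE than in ES GFP+ cells (log2 -1.05) and 1.58-fold lower than in ES GFP- cells (log2 -0.66). Between the ES fractions the difference of log2 0.395 fell just short of the repeat-spot limit of 0.397. It was 0.468, past the limit, with quantile normalization, and -0.05, of the other sign, when scaled to the 50th percentile. The difference between MGE and ES GFP+ cells kept its sign in all 10 other processings, between log2 -1.09 and -0.30, and at the smaller end it was within the repeat-spot limit. Against ES GFP- cells the smallest difference, log2 -0.35, was within the limit too.

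**Figure D3:**
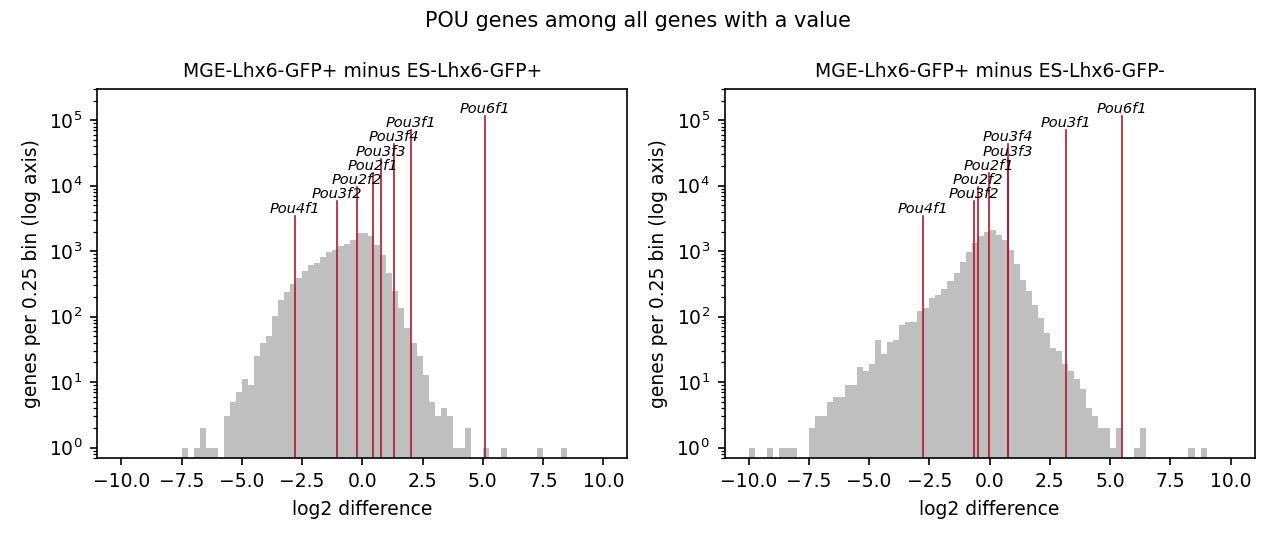
Distribution of log2 differences over all genes with a value (grey, genes per bin of 0.25 on a log axis) for MGE over ES GFP+ cells (left) and MGE over ES GFP- cells (right), with each POU gene as a red line whose height only separates the labels. *Pou6f1* and *Pou3f1* stand on the right side of both distributions, at 5.10 and 2.03 on the left panel, and *Pou4f1* on the left side, at -2.79.

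The class II genes had 2 probes each and the probes of a gene did not always agree. For *Pou2f1* the probe of NM_198934 had intensities of 460, 832 and 833, and was 1.6-fold lower in ES GFP+ than in ES GFP- cells (log2 -0.68) and 2.35-fold higher in MGE than in ES GFP+ cells (log2 1.23). The probe of NM_198933 had intensities of 3440, 4630 and 2120, with log2 differences of -0.25 and -0.33, both inside the repeat-spot limit. The rise of the first probe in MGE over ES GFP+ cells was thus not seen with the second, and the mean of log2 0.45 for the gene is an average of unlike values. That mean fell inside the limit, at log2 0.34 to 0.36, with quantile normalization, the unsubtracted median signals and the deposited values. In MGE over ES GFP- cells the first probe was higher, at log2 0.55, and the second lower, at -0.58, both past the limit. The mean of log2 -0.01 for the gene in that comparison is thus an average of opposite values. Whether these probes read different transcripts was not tested.

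For *Pou2f2*, the probe of NM_001163554 had intensities of 2530, 3510 and 2210 and differed by at most log2 0.30 in any comparison, within the limit. The probe of NM_011138 had intensities of 306, 399 and 149, within the control range on the ES GFP+ and MGE arrays, and was 1.83-fold lower in MGE than in ES GFP- cells (log2 -0.87). As a gene, *Pou2f2* passed the repeat-spot limit under the main processing only for MGE against ES GFP- cells (log2 -0.49, and -0.11 with its brightest probe alone). Between the ES fractions it was past the limit at log2 -0.70 when scaled to the 50th percentile. It was also past it at -0.52 measured from the median of all genes and at -0.402 with the unsubtracted median signals. In MGE over ES GFP+ cells the 50th percentile scaling gave 0.51.

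Neither class IV gene exceeded the control range in GFP+ cells of either source. *Pou4f1*, whose product BRN3A marks sensory, retinal ganglion and habenular neurons, had intensities of 202 on the ES GFP+ array, 226 on the ES GFP- array and 22.5 on the MGE array (NM_011143). It exceeded the control range only in GFP negative cells, where that range ended at an intensity of 208, against 377 on the ES GFP+ array. Relative to the 75th percentile the 2 ES levels were nearly the same, log2 -1.89 in ES GFP+ and -1.90 in ES GFP- cells. The ES fractions did not differ beyond the limit under the main processing (log2 0.01). The value was -0.43, past the limit of 0.397, when scaled to the 50th percentile and with quantile normalization. MGE cells were 6.92-fold lower than ES GFP+ and 6.86-fold lower than ES GFP- cells (log2 -2.79 and -2.78). The size of this difference depended on how dim spots were treated. The deposited log2 values gave -0.88 and -1.25, and a floor at the control range gave -0.03 against ES GFP- cells and no value against ES GFP+ cells.

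*Pou4f2*, the gene of BRN3B, had intensities of 17.0, 16.5 and 6.04 (NM_138944) and was not well above background on any of the 3 arrays, so no fold is given for it.

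The lists for sensory and retinal ganglion neurons and for habenula and dorsal midbrain differed in level. Not all genes of these lists are particular to neurons that use class IV factors. Of 11 genes of sensory and retinal ganglion neurons on the array, 2 exceeded the control range on the ES GFP+ array, 2 on the ES GFP- array and 0 on the MGE array, and 9 of 11 were lower in MGE than in ES GFP+ cells beyond the limit, where 48.7% of all genes were. Most of these differences are between levels within the control range. Of 10 genes of habenula and dorsal midbrain, 7, 7 and 3 exceeded the control range on the ES GFP+, ES GFP- and MGE arrays. Of 9 with a value, 7 were lower beyond the limit in MGE than in either ES fraction. Of all genes 48.7% were lower against ES GFP+ and 34.5% against ES GFP- cells. *Gata3* and *Tal1*, factors of midbrain GABAergic neurons, had levels of log2 1.79 and 1.91 on the ES GFP+ and 3.53 and 2.98 on the ES GFP- array and were within the control range on the MGE array. The median of these 9 was log2 -2.78 in MGE over ES GFP+ cells, where the median of all genes was -0.36. The other 2 were higher in MGE than in ES GFP+ cells, *Tac1*, which encodes a neuropeptide of many neurons, at log2 2.34 and *Gbx2*, a homeobox gene of the midbrain-hindbrain boundary, at 2.06. The study counts *Gbx2* among markers of the globus pallidus, a derivative of the MGE. The part of such cells in the *Pou4f1* difference was not tested.

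**Figure D4:**
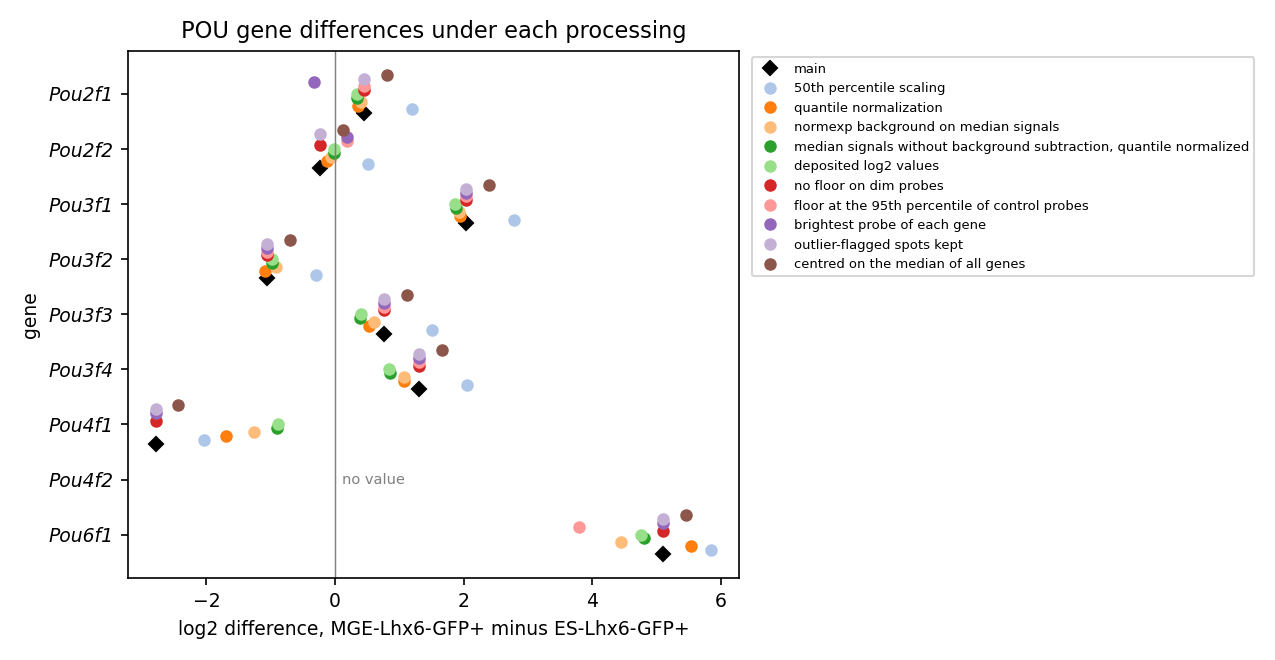
Log2 difference of each POU gene between MGE and ES GFP+ cells under the main processing (black diamond) and 10 others (colored points, with small vertical offsets), from 1 array per population. *Pou6f1*, *Pou3f1*, *Pou3f3* and *Pou3f4* stay above 0 and *Pou3f2* and *Pou4f1* below 0 throughout, *Pou2f1* and *Pou2f2* have points on both sides, and *Pou4f1* spreads from -2.79 to -0.88.

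Further POU genes were read on the same arrays. *Pou1f1*, *Pou2f3* and *Pou4f3*, which serve the pituitary, epidermis and tuft cells, and inner ear hair cells, were within the control range on all 3 arrays. *Pou5f2* was 2.24-fold higher in MGE than in ES GFP+ cells (log2 1.16), with levels of log2 -0.05, -0.07 and 1.11 relative to the 75th percentile. *Pou5f1*, the pluripotency factor OCT4, exceeded the control range only in ES GFP- cells. It was 2.83-fold lower in ES GFP+ than in ES GFP- cells (log2 -1.50, and as little as -0.53 under another processing) and 7.06-fold lower in MGE than in ES GFP- cells (log2 -2.82). *Pou5f1* has near-identical pseudogenes, which its probe may read.

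Of 14 cofactors and partners of POU proteins, 4 were higher and 6 lower in ES GFP+ than in ES GFP- cells beyond the limit (median log2 -0.05), 5 and 4 in MGE over ES GFP+ cells (0.19), and 7 and 6 in MGE over ES GFP- cells (0.27). The shares over all genes were 43.9% and 18.3%, 20.3% and 48.7%, and 28.3% and 34.5%. *Hcfc1*, the host cell factor that binds OCT1 in herpesvirus transcription, was the highest of the 14 in MGE over ES GFP+ cells, at log2 1.32. *Snapc1*, a subunit of the complex that works with OCT1 at small nuclear RNA genes, had the highest value in the other comparisons but was within the control range on all 3 arrays, so no size is given for it. *Sox10*, which partners with *Pou3f1* products in glia of the neural crest, was the lowest in all 3 and exceeded the control range only on the ES GFP- array. Its difference was log2 -2.96 between the ES fractions (-3.49 to -1.74 under 10 other processings) and -5.00 in MGE over ES GFP- cells (up to -2.68). In MGE over ES GFP+ cells, both within the control range, it was -2.04 and shrank to -0.26 under another processing. *Sox2*, the partner of class III factors in progenitors, was 1.98-fold lower in ES GFP+ than in ES GFP- cells and 2.06-fold higher in MGE than in ES GFP+ cells. *Sox11*, a partner in young neurons, had levels of log2 4.86, 4.17 and 5.62 on the ES GFP+, ES GFP- and MGE arrays.

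Among 12 genes linked to class III factors, 3 were higher and 9 lower in ES GFP+ than in ES GFP- cells beyond the limit (median log2 -1.48). Of all genes 43.9% were higher and 18.3% lower. The lowest on the list was *Neurog2*, a proneural factor of the pallium, at log2 -3.65 (-4.67 to -1.29 under 10 other processings). The highest was *Mef2c*, a factor of maturing neurons, at 2.43 (1.54 to 2.43). *Neurog2* was within the control range on the ES GFP+ array, and *Mef2c* on the ES GFP- array. In MGE over ES GFP+ cells 5 were higher and 1 lower (median log2 0.34), where 20.3% and 48.7% of all genes were. The highest was *Etv1*, a globus pallidus marker in the study, at log2 4.29, with its ES GFP+ level within the control range. *Neurog2* had the lowest value but was within the control range on both arrays, so no size is given for it. Its sign changed under 1 of 9 other processings. Against ES GFP- cells the MGE split was 5 higher and 7 lower (median -1.13), where 28.3% and 34.5% of all genes were. *Hes5*, *Nes* and *Fabp7*, genes of radial glia on the same list, were 3.56-fold, 3.26-fold and 5.18-fold lower in ES GFP+ than in ES GFP- cells. All 10 markers of radial glia were lower in ES GFP+ than in ES GFP- cells beyond the limit, where 18.3% of all genes were. Their summed intensities were 10110, 55990 and 9086 on the ES GFP+, ES GFP- and MGE arrays. The part of radial glia in the class III differences was not tested.

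Of 17 genes linked to class IV factors, 7, 8 and 6 exceeded the control range on the ES GFP+, ES GFP- and MGE arrays. In MGE over ES GFP+ cells 4 of the 15 with a value were higher and 9 lower (median log2 -1.08), where 20.3% and 48.7% of all genes were. The highest was *Dlx2*, which is also an MGE marker, at log2 1.58. *Isl2*, a factor of motor and sensory neurons, had the lowest value but was within the control range on all 3 arrays, so no size is given for it. In ES GFP+ over ES GFP- cells 7 of 16 were higher and 3 lower (median 0.24), near the shares of 43.9% and 18.3% over all genes. The highest and lowest values there belonged to *Atoh7*, the proneural gene of retinal ganglion cells, and *Neurod4*, a proneural factor of the same family, which were also within the control range on every array. Against ES GFP- cells 3 of 14 were higher and 7 lower (median -0.27), where 28.3% and 34.5% of all genes were. The values ran from *Dlx2* at log2 2.98 to *Neurog1* at -2.84. *Neurog1* was within the control range on the MGE array, and its difference shrank to -0.23 under another processing.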

How the data were processed

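Total RNA of each sorted population was amplified, labeled with Cy3 and hybridized to 1 one-color Agilent array of 62976 spots per population, all on 1 slide and in 1 scan. The authors extracted the images with Feature Extraction (10.7.3.1 per the file headers), and the files they deposited hold background-subtracted spot intensity on a linear scale, not scaled between arrays. Normalized log2 values were deposited too, with no statement of their scale in the sources used here, and served as an alternative.

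Log2 intensity minus the 75th percentile of the array's mouse probes was computed after removal of 135, 137 and 98 flagged spots on the ES GFP+, ES GFP- and MGE arrays (Python 3.11.15, numpy 2.4.6, pandas 2.3.3; limma 3.58.1 in R 4.3.3 for the normexp alternative). Probes without the software's call on at least a share of 0.5 of their spots were raised to the lowest called value of the array. Accessions were matched to a RefSeq gene table, which named 26582 probes. That of the *Pou6f1* probe was not matched there and was named from the study's supplementary tables. A gene's value is the mean over its probes. The repeat-spot SD on an array was log2 0.139 to 0.144, over 305 to 358 probes with at least 5 spots. The scaling and the gene differences were tested on simulated data, with changes planted only in genes that had a bright probe. Genes with only dim probes were not covered by that test. The text names all members, and of each list the genes with the largest and smallest difference; others were chosen after their values were seen. The members and lists were chosen with earlier results of these data known. Effects of amplification and sorting on intensity cannot be separated with 1 array per population. Some genes of the lists are not reported here.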

Additional observations from a re-analysis of the deposited data

How the results depend on the processing

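Of 237 differences of single POU genes under 10 alternatives, 146 moved by less than 1 SD of a repeat-spot difference, 90 moved by more and 1 changed a called direction, *Pou2f1* in MGE over ES GFP+ cells, at log2 -0.33 when only its brightest probe was used. Some alternatives could hardly move these values. Leaving out the floor changed none of them, and keeping flagged spots shifted them only slightly. The brightest probe could change only genes with more than 1 probe. The number of unmoved values, or a sign kept in all 10, is thus a weak measure of stability. Scaling to the 50th percentile gave 0 genes at least 2-fold higher in ES GFP+ over ES GFP- cells, 5 higher and 1 lower in MGE over ES GFP+ cells and 4 higher in MGE over ES GFP- cells, and it moved the median of all genes to log2 -0.18, 0.40 and 0.25. The first of these counts was also 0 with normexp, with median signals quantile normalized without background subtraction, with the deposited log2 values and with centring on the median of all genes. The 3 genes higher in MGE than in ES GFP+ cells became 2, without *Pou3f4* (log2 0.85), with the unsubtracted median signals and with the deposited log2 values. These 2 processings gave nearly the same differences for the POU genes, such as log2 -0.90 and -0.88 for *Pou4f1* in that comparison. They count for little more than 1 alternative. The 2 genes lower in MGE than in ES GFP+ cells became 1 with normexp, with the floor at the control probes and with centring, and 0 with the unsubtracted median signals and with the deposited log2 values. The 1 gene lower in MGE than in ES GFP- cells became 0 with the floor at the control probes. Except where the floor itself or the size of the centring shows it, the cause was not tested. Normexp on median signals and centring were chosen after seeing the data. Normexp on mean signals and probes named by other accessions were not run. No replicate could be left out. No paired analysis was possible because each group has 1 sample. Dim signal limits *Pou4f1*, *Pou4f2*, *Pou6f1* in ES cells and a probe of *Pou2f2*.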
